A study of Mus musculus with 2 samples.

Results

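Annotated retained-intron transcripts are gene models that GENCODE types as retained_intron, a class of non-coding models that keep intron sequence beside the spliced coding models of the same gene. The members described here were the models of this type that held at least 1 read as Known, the label the annotation tool TALON gives to reads assigned to an annotated transcript, in either of 2 long-read libraries. There were 1605 of them among 19252 Known transcripts with reads. They came from 1390 genes, 1204 of which had 1 member and none of which had more than 4. The annotation holds 21848 retained-intron transcripts in all, of which 7.35% were read.

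Each library was made from 2 µg of total RNA of the gastrocnemius, the large muscle of the calf. The mice were females of the B6CASTF1/J strain, 25 days old. B6CASTF1/J mice are first-generation hybrids of a C57BL/6J and a CAST/EiJ parent, so each gene has a copy of either origin. The labels number the animals and call the libraries biological replicates 2 and 1, with no treatment, mutant or second tissue, and both carry the same donor record. Every comparison below sets the reads of replicate 2 against those of replicate 1. Without spike-ins, replicate 2 held 1557594 reads, of which 1053999 were Known, and replicate 1 held 1069771 reads, of which 681049 were Known. Genes that mark skeletal muscle fibres (Acta1, Ckm, Myh4, Atp2a1, Tnnt3, Tnnc2 and Casq1) took 25.4% of the reads in replicate 2 and 33.6% in replicate 1. Markers of other cell types took smaller shares, most of them lower in replicate 2. Markers of fibroblasts took 0.212% in replicate 2 and 0.403% in replicate 1, of blood 0.0345% and 0.0990%, and of adipocytes 0.0087% and 0.0327%. Markers of Schwann cells took 0.0075% and 0.0119%, of endothelium 0.0022% and 0.0057%, and of leukocytes 0.0031% and 0.0026%. Their part in the differences between the libraries was not tested. In RNA from whole muscle, fewer cells of a type and less RNA per cell cannot be told apart.

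Splicing removes introns that begin with GT and end with AG at almost every site. A transcript that keeps an intron may stay in the nucleus, may be spliced later, or may be degraded in the cytoplasm when the intron carries a stop codon. Genes for splicing factors and for the CLK kinases that phosphorylate them are known for introns of this kind.

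The annotated type covers several structures. A whole intron of another transcript of the gene lay inside an exon of 572 members. Another 675 members held only the end of an intron, because the model starts inside it. A further 349 held only the beginning of one, because the model ends inside it, and 9 fitted none of these. In 148 members the whole intron lay in an internal exon, with a spliced intron on either side. Of 1109 wholly held introns, counted once per member, 1063 (95.9%) began with GT and ended with AG.

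The following sequences show the introns kept whole in internal exons of 4 of the models, in the sense strand on GRCm38 (mm10), from the GENCODE M21 transcript sequences. Each run has 8 exon bases at its outer side, and the capitals mark the GT and the AG at the intron's ends. Rsrp1-204 is the most read of them; it keeps a long intron at chr4:134925433-134926734, so both ends are shown, from chr4:134925425-134925454 and chr4:134926713-134926742, plus strand. Tmem52-202 and Ppdpf-206 keep introns short enough to print whole, from chr4:155469339-155469469 and chr2:181187729-181187816, plus strand. Srsf5-212 belongs to a gene for a splicing factor, and its intron ends lie at chr12:80947858-80947887 and chr12:80949073-80949102, plus strand.
Rsrp1-204, intron beginning: aggtggagGTaagtgccttcaggaagctgc
Rsrp1-204, intron end: ttaaaattctcttcctctttAGcattcaga
Tmem52-202: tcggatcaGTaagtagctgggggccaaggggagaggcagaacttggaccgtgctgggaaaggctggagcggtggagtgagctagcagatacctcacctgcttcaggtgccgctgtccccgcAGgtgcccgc
Ppdpf-206: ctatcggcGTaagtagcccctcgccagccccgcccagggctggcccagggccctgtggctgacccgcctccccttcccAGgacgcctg
Srsf5-212, intron beginning: gctggcagGTttgttgaaatacagttttga
Srsf5-212, intron end: aacataattgtcttgtgttaAGgatctcaa

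The next sequences show the other common structure, the intron end at which the most read models start. In each, the bases up to the capital AG are intron, and the 8 bases after it are exon. Cox4i1-204 (chr8:120672590-120672732, plus strand) opens with 135 intron bases, Fxyd1-213 (chr7:31052170-31052193, minus strand) with 16, and Myoz1-203 (chr14:20650647-20650718, minus strand) with 64.
Cox4i1-204: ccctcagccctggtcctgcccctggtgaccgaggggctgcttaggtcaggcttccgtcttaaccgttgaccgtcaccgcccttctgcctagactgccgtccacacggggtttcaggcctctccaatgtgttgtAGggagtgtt
Fxyd1-213: atctgttcctttttAGaactgggg
Myoz1-203: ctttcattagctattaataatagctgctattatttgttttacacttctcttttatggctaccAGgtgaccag

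The members together held 15893 reads in replicate 2, which was 1.51% of its Known reads (95% interval 1.48 to 1.53), and 5431 reads in replicate 1, which was 0.797% (0.776 to 0.819). The mean share was 1.15% ± 0.50 (SD, n = 2). These intervals are exact Clopper-Pearson intervals and cover counting error only, as do all intervals below. Protein-coding transcripts held 95.6% and 96.9% of the Known reads, in the same order, and transcripts of the nonsense_mediated_decay type 0.140% and 0.171%. Transcripts of the processed_transcript type, another non-coding class, held 0.285% in replicate 2 (0.275 to 0.295) and 0.215% in replicate 1 (0.204 to 0.226). The retained-intron share thus stood higher in replicate 2 by more than counting error, and so did that of processed transcripts.

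The reads were concentrated in a few models. Cox4i1-204 held 36.9% of the member reads in replicate 2 and 32.0% in replicate 1, and together with Fxyd1-213 it held 59.1% and 44.3%. Without this pair, the members' share of Known reads was 0.616% in replicate 2 and 0.444% in replicate 1. At the other end, 848 members (52.8%) had 1 read in all, 599 had 2 to 9, 158 had 10 or more and 14 had 100 or more. The libraries listed 1195 members in replicate 2 and 909 in replicate 1, with 499 (31.1%) in both. A model with 0 reads could still lie at up to 1.93 CPM (reads scaled to a library of 1000000) in replicate 2 and 2.80 CPM in replicate 1, the level of 3 reads.

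Cox4i1 encodes a subunit of cytochrome c oxidase, the last complex of the respiratory chain. Its model Cox4i1-204 (chr8:120672590-120674113, 3 exons, 578 bases) had 5861 reads in replicate 2 and 1739 in replicate 1. That was 72.1% of the gene's Known reads in replicate 2 and 66.2% in replicate 1, so in both libraries this model was read more often than the coding model Cox4i1-201, which had 2221 and 872 reads.

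Fxyd1 encodes phospholemman, a small membrane protein that regulates the sodium-potassium pump. Fxyd1-213 (chr7:31051682-31052193, 3 exons, 255 bases) had 3536 reads in replicate 2 and 667 in replicate 1, or 82.2% and 69.5% of the gene's Known reads. Rpl5 encodes a protein of the large ribosomal subunit. Rpl5-204 (chr5:107904114-107908050) had 663 and 137 reads, or 90.1% and 83.0%. All 3 models were the most read Known transcript of their gene in either library.

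The models next in level had smaller shares. Sparc-205, from the gene for a secreted collagen-binding protein, had 345 reads in replicate 2 and 146 in replicate 1, or 39.7% and 30.8% of the gene's Known reads. Myoz1-203, from the gene for a Z-disc protein that binds calcineurin, had 255 and 76 reads, or 5.81% and 3.09%. Fh1-203, from the gene for fumarate hydratase of the citric acid cycle, had 153 and 24 reads, or 20.4% and 5.50%. Each of these models starts inside an intron and lies at the gene's 3′ end.

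Rsrp1-204 and Tmem52-202 keep whole introns in internal exons. Rsrp1, which encodes a protein rich in arginine and serine, had 138 reads of the retained-intron model in replicate 2 and 148 in replicate 1, or 86.8% and 84.1% of its Known reads. Tmem52, which encodes a transmembrane protein, had 155 and 114 reads of Tmem52-202, or 25.8% and 35.7%. The long non-coding gene Nctc1 had 113 and 79 reads of its model Nctc1-201, or 100% and 91.9% of its Known reads. Reads of every label at Nctc1 numbered 169 in replicate 2 and 150 in replicate 1.

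**Figure D1:**
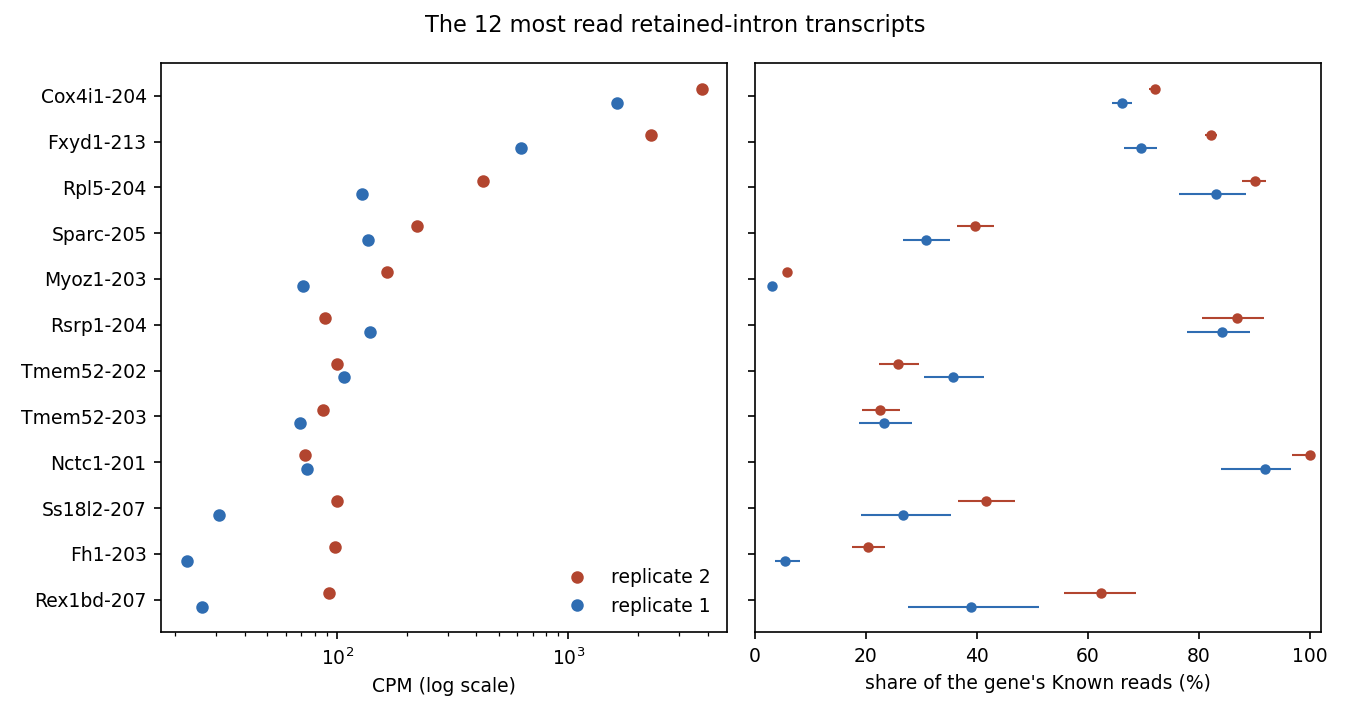
Level in CPM (left, log axis) and share of the gene's Known reads in percent (right) for the 12 members with the highest mean level, replicate 2 in red above replicate 1 in blue; bars are exact 95% intervals for counting error. Cox4i1-204 and Fxyd1-213 lie above the others in level, while Rpl5-204, Rsrp1-204 and Nctc1-201 have shares above 80% in both libraries.

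Over the 1077 members whose gene had at least 20 Known reads in all and at least 1 in each library, the median share of the gene's Known reads was 1.97%, against 84.5% for protein-coding transcripts. The median was 2.00% in replicate 2 and 0.833% in replicate 1. In 39 of the 749 members whose gene had 20 or more Known reads in each library, the share was over 10% in both, and in 7 it was over 50% in both. There were 25 members that were the most read Known transcript of their gene, ties counted, and 15 of these were so in each library on its own. Apart from those named above, the 25 included Rex1bd-207, Stau1-209, whose gene encodes a double-stranded RNA-binding protein, and Emb-202. The count was 14 where the gene had 50 or more Known reads.

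Some shares depend on the Known label. Tnni2 encodes fast skeletal troponin I. Tnni2-203 had 75 of 115 Known reads in replicate 2 and 44 of 50 in replicate 1, or 65.2% and 88.0%, but the gene had 6238 and 2647 reads when reads of every label were counted. Trdn-204, from the gene for triadin of the calcium release complex, had 32 reads in replicate 2 and 1 in replicate 1, against 2920 and 859 reads of any label at the gene. Sparc had 870 and 474 Known reads, against 1453 and 709 reads of any label.

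The intron chain of each member, meaning its ordered set of splice junctions, was next set against the chains of all annotated transcripts of the gene that are not of the retained-intron type. In 824 members (51.3%) the chain was equal to the last junctions of such a transcript. These members held 86.2% of the member reads in replicate 2 (95% interval 85.7 to 86.7) and 76.6% in replicate 1 (75.5 to 77.8). Among all annotated retained-intron transcripts, read or not, 18.3% had a chain of this kind. Of those in genes with 20 or more Known reads, 36.3% were read, against 9.61% of models whose chain equals the first junctions and 0.577% of models whose chain lies in the middle.

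A chain at the 3′ end has the same junctions as a read of the longer coding transcript that lacks its first part. The tables hold read counts per model and no read ends, so the reads that began inside the intron and the reads that began in the exon after it cannot be told apart. How many of the 3′-end reads hold intron sequence was therefore not tested.

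The chain was unlike any stretch of another type's chain in 178 members (11.1%), here called own-chain members. They held 526 reads in replicate 2 (3.31% of member reads) and 473 in replicate 1 (8.71%). Of Known reads these were 0.0499% in replicate 2 and 0.0695% in replicate 1, so unlike the members as a whole the own-chain members had a lower share in replicate 2, a difference that was not tested. A further 255 members had 1 exon and no junction, with 6.20% of the member reads in replicate 2 and 6.61% in replicate 1. The first-junction class had 325 members, the middle class 21, and 2 had the chain of another transcript whole.

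**Figure D2:**
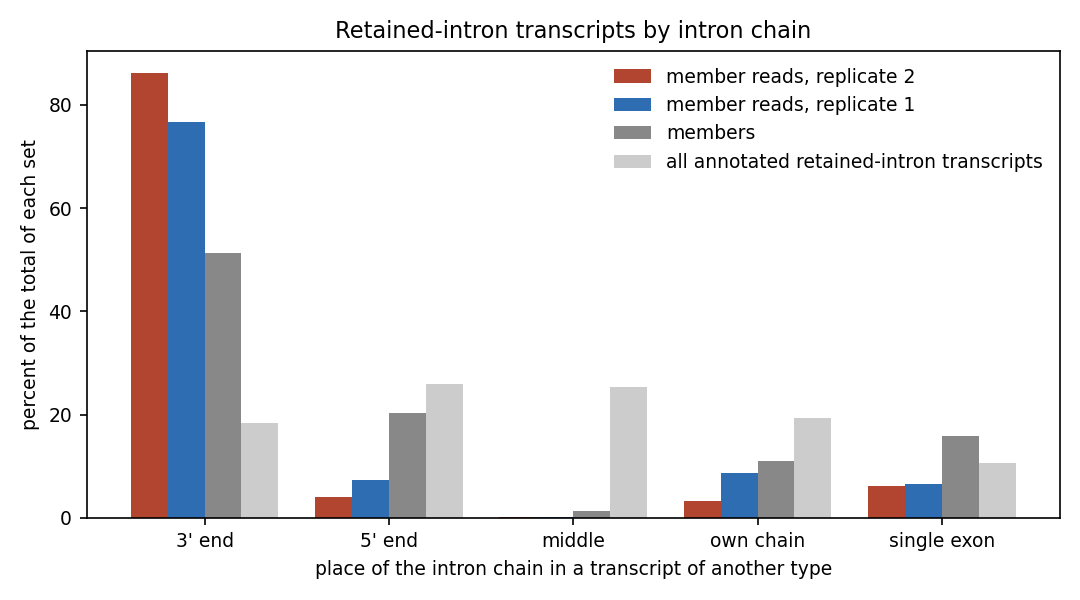
Percent of member reads in replicate 2 and in replicate 1, percent of members, and percent of all 21848 annotated retained-intron transcripts, by where the intron chain lies in a transcript of another type; each colour is a percent of its own total, and the 2 members with the whole chain of another transcript are not drawn. Models at the 3′ end take 86.2% and 76.6% of the member reads but 18.3% of the annotated models.

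**Figure D3:**
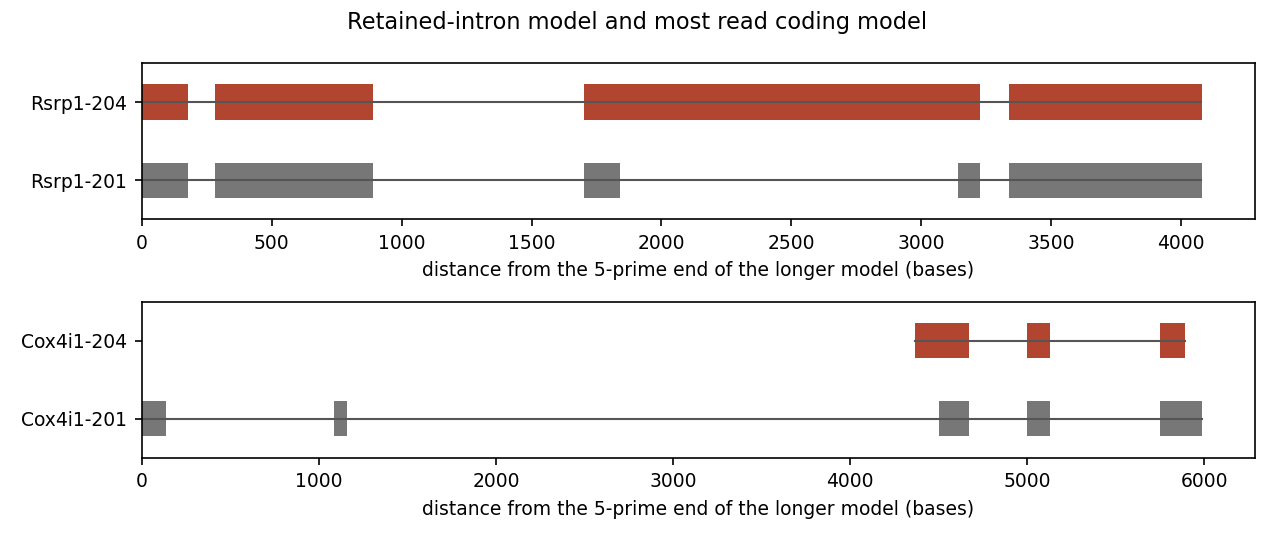
Exons (boxes) and introns (lines) of the retained-intron models (red) and the most read coding models (grey) of Rsrp1 and Cox4i1, in bases from the 5′ end of the longer model. Rsrp1-204 joins 2 exons of Rsrp1-201 into 1 exon. Cox4i1-204 has the last 2 junctions of Cox4i1-201, and the first of its 3 exons reaches back into the intron.

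At several genes the 3′-end chain of the member stood out from the neighbouring partial chains. Reads of any label were counted by how many of the coding transcript's last introns they held. At Cox4i1, 5861 reads of replicate 2 held exactly the last 2 introns, beside 22 with the last 1, 69 with the last 3 and 2221 with all 4. In replicate 1 the counts were 1739, beside 5, 36 and 872. At Rpl5, 663 reads of replicate 2 held the last 2 introns, beside 8 with 1, 4 with 3 and 65 with all 7, and in replicate 1 the counts were 137, beside 1, 0 and 27. At both genes the chain of the annotated model thus exceeded the chains 1 intron shorter and 1 intron longer in both libraries.

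At Fh1 the chain of 2 introns had 153 reads in replicate 2, beside 3 with 1 intron and 2 with 3, while the full chain of 9 had 594. At Myoz1 the step was smaller: the chain of 1 intron had 255 reads in replicate 2 and 76 in replicate 1, reads with none of the introns 72 and 23, and the chain of 2 introns 74 and 34. Sparc, with 345 and 146 reads at the member's 4 introns, had 38 and 23 at 3 introns and 72 and 40 at 5.

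Steps as large also lay at chains other than the member's. At Atp5b, from the gene for the beta subunit of ATP synthase, 5077 reads of replicate 2 and 945 of replicate 1 held the last 1 intron, beside 19 and 11 at the 4 introns of Atp5b-205. At Atp5j, 1746 and 603 reads held the last 3 introns, beside 26 and 5 at the 2 introns of Atp5j-208.

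Most annotated chains had no such step. Over all 425 annotated 3′-end chains, read or not, whose coding transcript had 100 or more reads, the median was 1 read per chain, against a median of 1.6 for the mean of the same transcript's other partial chains. That minimum leaves out models whose coding transcript was little read. Rpl5-204 is among those left out, as the full chain of its coding transcript had 92 reads. The annotated chain exceeded every other partial chain in 68 of the 425, and 161 had no read. The mean was 36.0 reads, and 18.2 without Cox4i1-204, against a mean of 24.5 for the other partial chains of the remaining models.

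**Figure D4:**
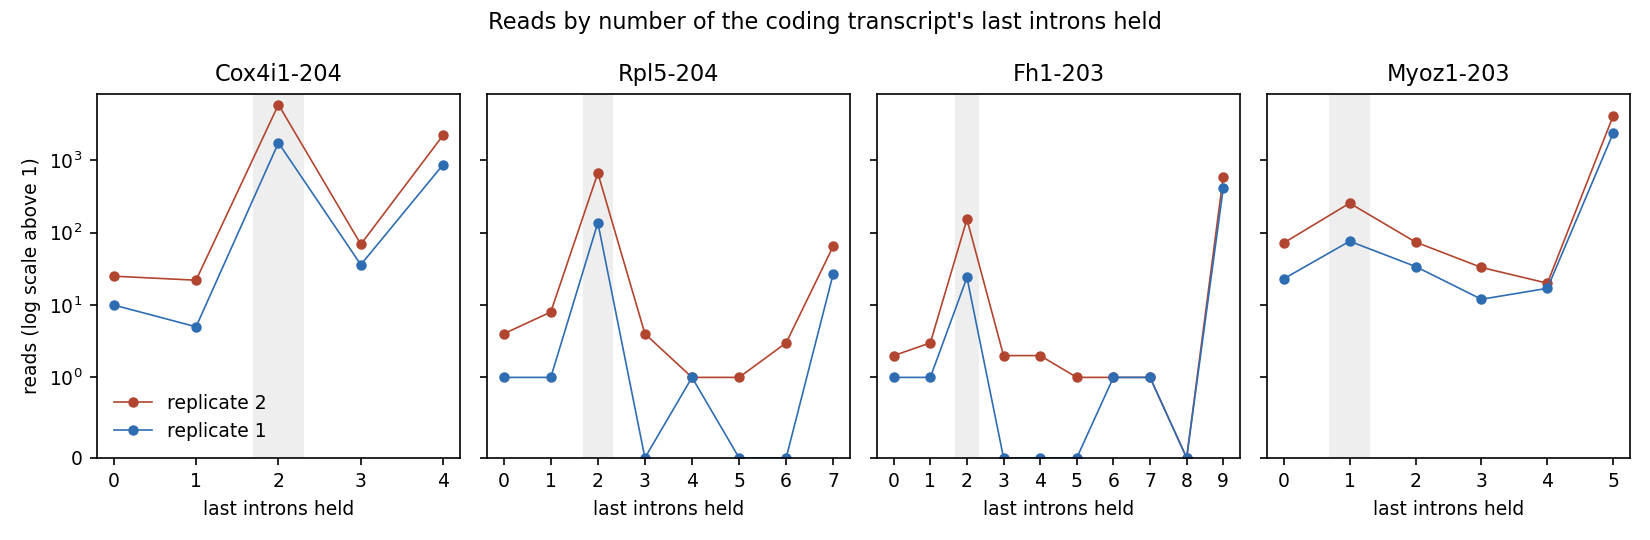
Reads of any label (log scale above 1) by how many of the coding transcript's last introns they hold, for 4 genes, replicate 2 in red and replicate 1 in blue; the grey band marks the chain of the retained-intron model and the last point the full chain. At Cox4i1, Rpl5 and Fh1 the band stands above its neighbours in both libraries, and at Myoz1 by a smaller step.

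The introns kept whole by members were shorter than other introns of the same genes. Models that were not read kept introns of a similar median length. The 1054 different introns held whole by a member had a median length of 266.5 bases, against 837 bases for the 5807 other introns of the same genes. In genes with 20 or more Known reads, and with introns counted once per model, the median was 245.5 bases over 772 wholly held introns of members. It was 222 bases over 3979 of annotated models that were not read. The whole introns lay within the coding span of the gene in 503 of the 572 members, outside it in 22 and partly within it in 34, and 13 were of genes with no coding transcript. In genes with 20 or more Known reads, the kept introns began with GTAAG in 140 and with GTGAG in 231 of 729 introns, read on the sense strand, together 50.9%. Among introns held whole by annotated models that were not read, the counts were 697 and 953 of 3319, together 49.7%.

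For introns kept in an internal exon, spliced and unspliced reads of any label could be counted at the same intron, including reads on models outside the annotation. A read counted as unspliced only where the exon that spans the intron had another exon on either side. Where a model kept several overlapping introns, the one most often spliced was used. At 74 introns of 30 or more bases with 20 or more such reads in each library, the median unspliced share was 2.04% in replicate 2 and 2.78% in replicate 1. The share was over 10% in both libraries at 10 introns and over 50% in both at 1, that of Rsrp1.

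The Rsrp1 intron, 1302 bases long, was unspliced in 144 reads and spliced in 16 in replicate 2, a share of 90.0% (95% interval 84.3 to 94.2). In replicate 1 it was unspliced in 152 and spliced in 26, a share of 85.4% (79.3 to 90.2). The intervals overlap, and the difference was not tested. The Tmem52 intron of 115 bases was unspliced in 161 of its reads in replicate 2, or 29.2% (25.5 to 33.2), and in 115 in replicate 1, or 37.8% (32.4 to 43.5). The 72-base intron of Ppdpf, whose name stands for pancreatic progenitor cell differentiation and proliferation factor, was unspliced in 36.2% and 38.7%.

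Adamtsl5, which encodes a protein related to secreted metalloproteases, kept its 515-base intron in 23.1% of reads in replicate 2 and 33.8% in replicate 1. Srsf5 is the gene for an SR protein that acts in splice-site choice. It had 15 unspliced and 30 spliced reads in replicate 2 and 26 unspliced and 15 spliced in replicate 1. The unspliced shares were 33.3% (20.0 to 49.0) and 63.4% (46.9 to 77.9). Their intervals overlap slightly, which is not a test, and the difference was not tested. Of these unspliced Srsf5 reads, 13 and 24 lay on models outside the annotation, so Srsf5-212 itself had only 2 reads in each library. Over all 74 introns, 88 of 508 unspliced reads in replicate 2 and 124 of 494 in replicate 1 were on such models.

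Agreement of the libraries followed the number of reads. Of members with 2 to 4 reads, 51.5% were in both libraries, against 60.1% of other Known transcripts in the same range of reads. Within a range, members and others were not matched for reads. At 5 to 9 reads the shares were 84.9% and 92.4%, at 10 to 19 reads 92.8% and 99.1%, and at 20 or more 98.7% and 99.9%. Over the 499 members read in both, log2 CPM had Pearson's r of 0.80 and Spearman's rho of 0.68. Over 123 members with 10 or more reads, and 20 or more Known reads of the gene in each library, the shares had r of 0.88 and rho of 0.81. These are descriptions across models that share 2 libraries and, in part, genes.

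The share of the gene's Known reads differed between the libraries for some members by Fisher's exact test (two-sided), which compares the reads of these 2 libraries and not conditions. With Benjamini-Hochberg adjustment over all 2724 Known transcripts tested, 15 of the 123 members tested passed an adjusted p of 0.05. All 15 were higher in replicate 2 and 0 were lower, while at an unadjusted p under 0.05 there were 37 higher and 4 lower. Of all Known transcripts tested, 1.51% passed, 0.808% higher in replicate 2 and 0.698% lower. At an unadjusted p under 0.05, 109 of the 2724 were higher and 111 lower. The median difference in share, replicate 2 minus replicate 1, was 1.47 percentage points over the members and -0.12 over all Known transcripts tested.

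Fxyd1-213 had the lowest adjusted p (8.64e-15, Fisher's exact test), with a share 12.7 percentage points higher in replicate 2. Fh1-203 was 14.9 points higher (9.00e-11) and Cox4i1-204 5.86 points higher (3.88e-06), by the same test. Usp19-211, a single-exon model of a ubiquitin protease gene, had 35 of 58 Known reads in replicate 2 and 9 of 60 in replicate 1, a share 45.3 points higher in replicate 2 (adjusted p = 8.13e-05, Fisher's exact test). Atf4-203, from the gene for a transcription factor of the stress response, had 20 of 56 Known reads in replicate 2 and 0 of 25 in replicate 1 (0.0228). Among the members that passed, the further large differences were those of Ctnnb1-215 (45.5% and 6.90%), Brap-209 (40.5% and 7.50%) and Rex1bd-207 (62.3% and 38.9%), and these 3 missed the threshold when transcripts with 5 or more reads were tested, where 11 of 198 members and 1.11% of all Known transcripts passed. Gapdh-213 differed by 31.1 points (47.1% and 16.0%) but did not pass (adjusted p = 0.322, Fisher's exact test).

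By chain, 10 of 84 tested 3′-end members, 4 of 21 single-exon members and 1 of 9 first-junction members passed the share test. Of all Known transcripts tested, 1.51% passed. Of the 8 own-chain members tested, 0 passed, and 1 was lower at an unadjusted p under 0.05. These 8 are too few to show whether own-chain members differ from the other classes. The single-exon members with the most reads were Ss18l2-207, with 156 reads in replicate 2 and 33 in replicate 1, Pgp-202, with 46 and 38, and Usp19-211. Exons of another annotated gene, on either strand, overlap some exon of the genes of 711 members, Cox4i1 and Rpl5 among them. Reads in such an overlap may be assigned to either gene. Whether the overlap reaches the member's own exons was not tested. Without such genes 11 of 78 tested members passed, beside 1.91% of all Known transcripts (31 of 1624). With all reads of the gene as the denominator 18 of 136 members passed, 16 higher and 2 lower in replicate 2, while 7.24% of all Known transcripts passed (239 of 3299). Tmem52-202 was then 9.74 points lower in replicate 2 and passed, where it did not pass over Known reads (adjusted p = 0.113, Fisher's exact test).

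**Figure D5:**
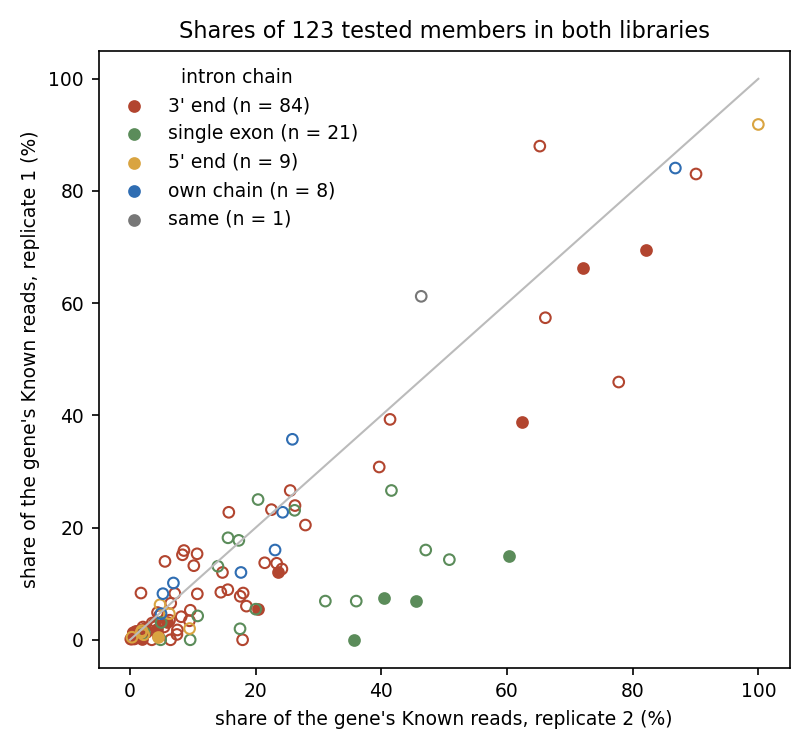
Share of the gene's Known reads in replicate 2 (horizontal) and replicate 1 (vertical), in percent, for the 123 members tested; colour gives the intron chain, filled points passed the share test at an adjusted p of 0.05, and the line marks equal shares. All 15 filled points lie below the line, on the side of replicate 2. None of the 8 own-chain members is filled, but these are too few to compare with the other classes.

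The level, as reads of the member against all other reads of the library, differed for 41 of the 158 members with 10 or more reads (Fisher's exact test, Benjamini-Hochberg over 7648 Known transcripts), or a share of members near the 25.4% of all Known transcripts that passed. With total reads as the scale, 34 members were higher in replicate 2 and 7 lower, whereas 9.23% of all Known transcripts were higher and 16.1% lower. As log2 ratios of replicate 2 over replicate 1, the medians were 0.56 for the members and -0.25 for all Known transcripts tested. Scaling by trimmed mean of M-values raises every log2 ratio by 0.245 and by DESeq2 size factors by 0.444. With the first, 44 members were higher and 4 lower, beside 13.6% of all Known transcripts higher and 9.74% lower. With the second, 47 members were higher and 2 lower, beside 17.8% and 6.42%. The calls over all Known transcripts were thus mostly lower in replicate 2 with total reads and mostly higher with either other scaling, while the members' calls were mostly higher with all 3. Of all Known transcripts tested, 7087 were protein-coding. Among 92 processed transcripts tested with total reads as the scale, 12 were higher and 0 lower. Their median log2 ratio was 0.51, so mostly higher calls were not particular to the members. Under the edgeR exact test with a dispersion of 0.04, 11 members passed, 10 higher and 1 lower, beside 0.785% and 1.96% of all Known transcripts.

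Cox4i1-204 had a log2 ratio of 1.21, Fxyd1-213 of 1.86, Rpl5-204 of 1.73 and Fh1-203 of 2.11, all past the threshold. The 7 lower members were Rsrp1-204 (-0.64), Fbxo40-203 (-1.42), Dnajb5-206 (-1.19), Ccnl2-205 (-2.13), Gpi1-203 (-1.70), Klhl33-203 and Adamtsl5-203 (-2.74). Klhl33-203 had 0 reads in replicate 2 and 16 in replicate 1. Rsrp1-204 no longer passed with either other scaling, and neither it nor Cox4i1-204 passed the edgeR exact test. Apart from Atf4-203 and Klhl33-203, 4 more named members had 10 or more reads in 1 library and 0 in the other: Pla2g12a-203 had 18 in replicate 2, Pdcd5-207 had 13, Dpm1-204 had 12 and Rpl14-202 had 10, and all had 0 in replicate 1. Of the 12 own-chain members tested, 0 were higher and 3 lower, with a median log2 ratio of -0.06. Of all Known transcripts tested, 9.23% were higher and 16.1% lower. These 12 are too few to show whether own-chain members differ from that.

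Transcript length moved with the level. Among members of up to 500 bases the median log2 ratio was 1.21, against 1.04 for other Known transcripts of that length. From 501 to 1000 bases it was 0.75 and 0.68, and from 1001 to 2000 bases 0.22 and 0.07. Above 2000 bases it was 0.28 for members and -0.63 for other Known transcripts. Of members up to 500 bases, 9 of 21 passed the level test as higher in replicate 2, and 0 as lower. Of other Known transcripts of that length, 101 of 212 were higher and 3 lower. From 501 to 1000 bases it was 13 higher and 0 lower of 64 members, against 289 and 16 of 825 others. From 1001 to 2000 bases it was 6 and 1 of 33 members, against 206 and 115 of 2123 others. Above 2000 bases it was 6 and 6 of 40 members, against 76 and 1092 of 4330 others. Replicate 2 thus held relatively more reads of short models of either kind. Above 2000 bases the calls of other Known transcripts were mostly lower, while those of the members were not. The part of length in the members' differences was not tested.

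Grouped by function, the genes of splicing regulators held the largest member share of the 9 gene lists, a rank that rests on Rsrp1-204. Of 44 such genes with Known reads, 21 had a member. Their members held 186 reads in replicate 2 and 179 in replicate 1, or 15.3% and 16.4% of the list's Known reads. Without Rsrp1-204 the share was 4.47% and 3.28%. The next members were Luc7l2-206 (7 and 4 reads), from the gene for a component of the U1 particle, and U2af1-204 (9 and 1), from the gene for the subunit that reads the AG of the intron end. None of the list's members passed the share test, for which 1 could be tested. Clk1-212, from a gene for a kinase of SR proteins, had 2 reads in replicate 2 and 6 in replicate 1.

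Genes of hnRNPs and other RNA-binding proteins had a member in 13 of 41 cases, with 0.564% of the list's Known reads in replicate 2 and 0.610% in replicate 1. Ybx3-203 was the most read, with 11 and 4 reads. The RNA surveillance list, which covers nonsense-mediated decay and the exosome, had 3 members in 30 genes with 4 and 2 reads, among them Upf3a-202, Rbm8a-204 and Smg5-208.

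Members took a small part of the reads of genes of muscle contraction and energy supply. They held 0.161% of the Known reads of sarcomere and Z-disc genes in replicate 2 and 0.101% in replicate 1, although 18 of 53 genes had one. Mylpf-203, from the gene for the fast regulatory light chain of myosin, had 78 and 21 reads, against 33094 and 14039 Known reads of the gene. The share was 0.282% and 0.120% for excitation-contraction coupling and 0.0372% and 0.0385% for glycolysis and glycogen, where Pygm-203 had 20 reads in replicate 2 and 10 in replicate 1, Tpi1-201 had 15 and 9, and Gapdh-213 had 16 and 4. In these lists, 3 of 6 tested sarcomere members passed the share test, all higher in replicate 2: Myoz1-203, Actn3-202 and Myh2-202, the last 2 with 40 and 10 reads in replicate 2 and 21 and 2 in replicate 1. Of the 5 others tested, 0 passed. Over all genes, 12.2% of the members tested and 1.51% of all Known transcripts tested passed. Casq1-202, from the gene for the calcium store protein calsequestrin, had 10 reads in either library.

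Mitochondrial genes reached 9.27% in replicate 2 and 4.94% in replicate 1, which became 0.650% and 0.340% without Cox4i1-204. Of 10 tested members, 4 passed the share test, all higher in replicate 2, beside 12.2% of all members and 1.51% of all Known transcripts tested. Among the 4 was Idh3a-203, from the gene for a subunit of isocitrate dehydrogenase, with 4.25% and 1.93% of the gene's Known reads. Ribosomal protein and translation factor genes reached 4.52% and 2.11%, and 0.590% and 0.466% without Rpl5-204, with 0 of 3 tested members past the share test. Rpl4-202 had 10 and 3 reads, and Rpl14-202 had 10 and 0. Clock and immediate early genes reached 5.46% and 5.77%, through Bhlhe40-204 (18 and 14 reads), Dbp-205 (12 and 19) and Tef-207 (18 and 13), each from a gene for a transcription factor. Without Bhlhe40-204 the share was 3.56% and 4.19%, so with the most read member of each left out the clock list stood below the splicing list in replicate 2 and above it in replicate 1. None of these 3 passed either test.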

How the data were processed

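Per the labels, the data come from long-read RNA-seq of mouse gastrocnemius with spike-ins, on assembly mm10. The authors deposited, for each library, a TALON table with a read count per transcript model and a gene-model file; the counts are whole numbers and not normalized, and exon number and length stand beside them. The sources used here do not give how read ends were treated in alignment and matching. Spike-in models were left out. Members were found by transcript ID, Known label and the gene-model type. The members and gene lists were chosen with earlier results of these data known.

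Shares and levels were tested with Fisher's exact test (scipy 1.17.1) and adjusted by Benjamini-Hochberg (statsmodels 0.14.6) over all Known transcripts with 10 or more reads, for shares also with 20 or more Known reads of the gene in each library and 2 or more Known transcripts read. With 1 group, p-values measure the reads of 2 libraries only. Log2 ratios add 0.5 reads. Alternatives used edgeR 4.0.16 and DESeq2 1.42.0 scaling of the deposited counts. Introns under 30 bases were left out of the intron-level reads, a choice made after seeing a 4-base gap in Oaz2. Both tests were tried on simulated counts that held sampling error only, so these cannot show how the tests behave under further variation between libraries. Members named are the 12 with the highest level, the 8 with the highest share in genes with 50 or more Known reads in each library, up to 5 with the largest differences in share each way, the 3 most read of each list, up to 5 with 10 or more reads in 1 library and 0 in the other, and the 3 most read single-exon members. Own-chain, most read and lower-level members beyond these were chosen after their values were seen. Sequences are from GENCODE M21.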

Additional observations from a re-analysis of the deposited data

How the results depend on the processing

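No paired analysis was possible because both libraries belong to 1 group. The members' share of Known reads was 1.15% on average; it was 0.530% without Cox4i1-204 and Fxyd1-213 and 0.0597% over own-chain members alone, both chosen after seeing the data. On single libraries it ranged from 0.797% to 1.51%. The 499 members in both libraries became 226 with 2 or more reads in each and 91 with 5 or more, and 419 with replicate 2 thinned to the Known reads of replicate 1. The count past the share test stayed between 11 and 18 under the planned settings. It was 0 of 8 for own-chain members, which are too few to compare. Of all Known transcripts, 1.51% passed the share test in the main setting. With 5 or more reads it was 1.11%, and over all reads of the gene 7.24%. The count past the level test was 11 with the edgeR exact test, 3 for own-chain members and between 32 and 49 otherwise. Of all Known transcripts, 9.23% were higher and 16.1% lower in level with total reads. With DESeq2 size factors these shares were 17.8% and 6.42%, and with the edgeR exact test 0.785% and 1.96%. The median share ranged from 0.833% to 2.00% over single libraries. Members most read in their gene numbered 14 at 50 or more Known reads, 15 when required in each library, and 25 to 29 on single libraries. Counts of members holding a whole intron stayed between 513 and 572. None of the members that passed the share or the level test changed the sign of that same value under the settings run for it. Depth limits most members: 848 had 1 read.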
